A study of Mus musculus with 9 samples.

Results

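Potassium channel genes were examined in 9 RNA-seq libraries of bone marrow (BM) endothelial cells (ECs). The members were all genes in the deposited count table whose symbol begins with Kcn, less those whose symbol ends in -ps, os or as. Of the 46078 genes listed, 99 began with Kcn and 2 of these, Kcnab3os and Kcnd3os, were left out by their ending, so that 97 remained. The endings did not remove 3 noncoding antisense RNAs (Kcnq1ot1, Kcnmb4os1 and Kcnmb4os2), and the other 94 encode pore-forming channel subunits or proteins that attach to or regulate them. The ECs were sorted as CD45-Ter119-CD31+ cells from the BM of wild type mice of the B6 strain, with no treatment named, and divided by surface Sca-1, the product of Ly6a. The titles tag libraries Sca-1+ 13 and Sca-1- 10, 14 and 22 with CD452 or its digits alone, tag Sca-1+ 15 and 19 and Sca-1- 8 and 16 with wt, and give Sca-1+ 7 neither, without saying what the tags mean. The study writes these fractions as Sca-1 high ECs, which line arterioles, and Sca-1 low ECs, which line sinusoids, and the labels as Sca-1+ and Sca-1-. There were 4 Sca-1+ libraries (named here by their end numbers 7, 13, 15 and 19) and 5 Sca-1- libraries (8, 10, 14, 16 and 22), with 21581653 to 25959818 counts each. Ages and separate animals were not stated in the labels. The titles of Sca-1+ 15 and Sca-1- 16 share a number that may mark the same animal but is not explained. The p-values below therefore measure the spread between these libraries.

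Potassium channels let potassium leave the cell and so set its resting voltage. In ECs an open potassium channel makes the membrane more negative, which favors calcium entry and can be passed on to the smooth muscle of the vessel wall. The voltage-gated channels open on depolarization and carry accessory subunits, the calcium-activated channels answer internal calcium, the inward rectifiers include the channels closed by ATP, and the two-pore channels give a background leak.

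The fractions were first set against marker genes, since the sort decides what the counts are taken from. Ly6a was counted at 1130 CPM (counts scaled to library size with TMM factors) on average in the Sca-1+ libraries and 0.678 CPM in the Sca-1- libraries. Of 16 general endothelial genes, 15 were higher in Sca-1+ libraries, and their summed level was 8180 to 10000 CPM against 797 to 2630 CPM. Among them was Emcn, whose protein the study stained in sinusoids and not in arterioles, at 855 CPM in Sca-1+ and 19.2 CPM in Sca-1- libraries. All 13 megakaryocyte and platelet genes were lower in Sca-1+ libraries, with a summed level of 31.6 to 79.2 CPM against 25400 to 107000 CPM in the Sca-1- libraries, so the library label of EC sits beside a megakaryocyte signal above the endothelial one in every Sca-1- library. Of 11 general leukocyte genes, 9 were lower in Sca-1+ libraries (239 to 405 CPM against 1770 to 3570 CPM), as were 8 of 11 erythroid genes (107 to 238 against 681 to 2430 CPM). Of 11 smooth muscle and pericyte genes, 8 were higher in Sca-1+ libraries (218 to 1510 CPM against 18.8 to 59.7 CPM). Of 9 neutrophil genes 1 was lower (8.25 to 787 against 138 to 764 CPM). Of 7 marrow stromal genes 4 were higher and 2 lower (515 to 2230 against 2390 to 28600 CPM). Most of the stromal sum in the Sca-1- libraries was Col1a1 (2030 to 27600 CPM), 1 of the 2 lower genes. Of 5 Schwann cell genes 2 were lower (2.08 to 6.58 against 119 to 659 CPM). Of 7 B and plasma cell genes 3 were lower, with 14.9 to 326 CPM in the Sca-1- libraries. Library Sca-1+ 19 held 2030 CPM of B and plasma cell genes, where the other 3 Sca-1+ libraries held 1.5 to 1.77 CPM. In these bulk libraries, fewer cells of a type and less RNA per cell cannot be told apart, and the part of these other cells in the channel results was not tested.

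Of the 97 members, 33 had enough counts to be tested, 42 had some counts and 22 had no count in any library. A zero count allows up to 0.0996 to 0.209 CPM in a library at 3 counts. Among the 33, 11 were higher in Sca-1+ libraries, 10 were lower and 12 did not pass (edgeR's quasi-likelihood test with Benjamini-Hochberg adjustment, adjusted p under 0.05), counts that became 3 higher and 18 lower when general endothelial genes were held level. Over all 15937 genes tested, 44.8% passed, 23.3% as higher and 21.4% as lower, so a fraction difference is common among all genes and no count of members is read as particular to channels. The 11 members in which every Sca-1+ library lay above every Sca-1- library, and the 5 in which every Sca-1- library lay above, stand beside 24.8% and 18.8% of all genes tested. The median log2 fold change (Sca-1+ over Sca-1-) was 1.39 over the tested members and 0.07 over all genes tested.

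Different genes carried most of the channel counts in the 2 fractions. Kcnj8, the pore of the vascular ATP-sensitive channel, took 50.6%, 64.1%, 57.9% and 33.9% of the CPM of the 97 members in Sca-1+ 7, 13, 15 and 19. Kcna3, a delayed rectifier known from T cells and also from megakaryocytes and platelets, took 87.6%, 88.0%, 68.4%, 48.5% and 52.6% in Sca-1- 8, 10, 14, 16 and 22. In the opposite fraction Kcna3 took at most 0.15% and Kcnj8 at most 5.24%. The members summed to 413 to 694 CPM in the Sca-1+ libraries and 556 to 2410 CPM in the Sca-1- libraries, where Kcna3 alone set most of the range.

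**Figure D1:**
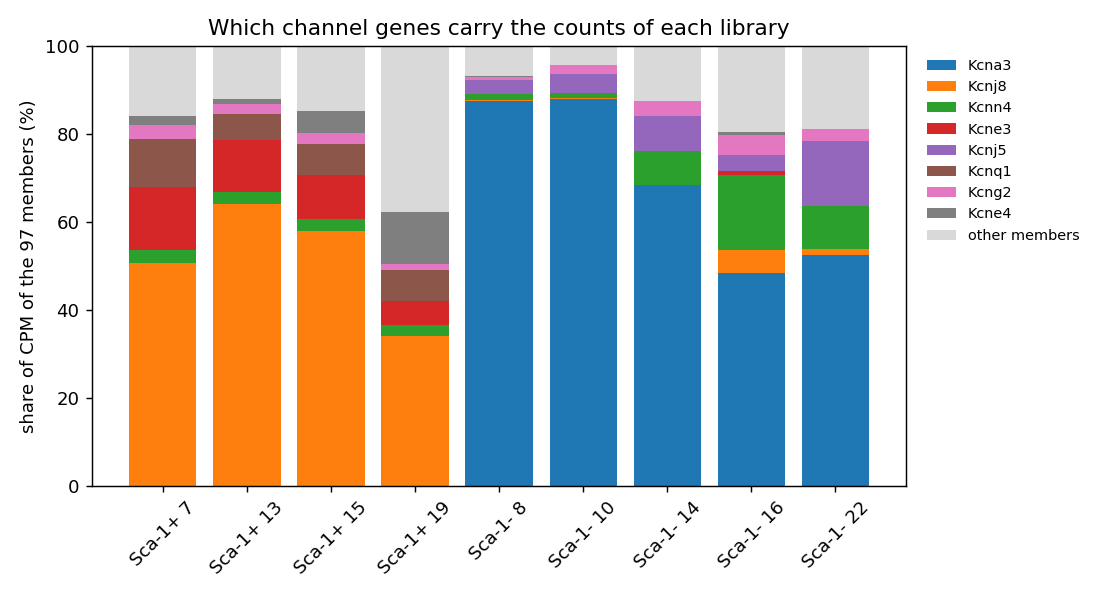
Share of the summed CPM of the 97 potassium channel genes taken by 8 named members in each library (percent, y axis; one stacked bar a library, other members in grey). Kcnj8 is the largest segment of each of the 4 Sca-1+ bars (33.9% to 64.1%) and Kcna3 of each of the 5 Sca-1- bars (48.5% to 88.0%).

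Levels of different genes were compared per kilobase of exon (CPM per kb). In Sca-1+ libraries Kcnj8 led at 116 ± 45.4 CPM per kb (SD, n = 4), followed by Kcne3, an accessory subunit that holds the Kcnq1 channel open, at 33.3 ± 13.8, and their library ranges did not overlap (54.9 to 158 and 13 to 44.2). Kcnq1 (10.4 ± 3.46), Kcne4 (9.64 ± 7.62) and Kcna5 (8.62 ± 7.74) came next with overlapping ranges. In the Sca-1- libraries Kcna3 led at 498 ± 455 CPM per kb (SD, n = 5; 142 to 1110), above the range of the G protein-gated channel Kcnj5 (13.4 ± 7.07; 4.23 to 21.6). Below Kcnj5, the ranges of Kcnn4 (9.89 ± 5.46) and Kcng2 (8.54 ± 5.07) overlapped its own and each other.

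For 4 members, Kcnj8, Kcne3, Kcna3 and Kcnj5, the RefSeq promoter table of GRCm38.p6 gave the sequence upstream of the start. These members were chosen because their mean CPM per kb ranked 1 and 2 in their fraction. Each sequence is read 5′ to 3′ on the strand of the gene and ends before the start annotated in both RefSeq and GENCODE M21. The windows are chr6:142571615-142571864 on the minus strand for Kcnj8, chr7:100176420-100176501 on the plus strand for Kcne3, chr3:107035912-107036161 on the plus strand for Kcna3 and chr9:32344351-32344594 on the minus strand for Kcnj5. Capitals mark the ETS core GGAAGT read on the opposite strand.
Kcnj8: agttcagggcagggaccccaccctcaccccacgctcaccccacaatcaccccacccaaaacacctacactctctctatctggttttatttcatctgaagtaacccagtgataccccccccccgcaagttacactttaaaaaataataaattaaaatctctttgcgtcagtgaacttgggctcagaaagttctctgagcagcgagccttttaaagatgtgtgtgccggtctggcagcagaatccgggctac
Kcne3: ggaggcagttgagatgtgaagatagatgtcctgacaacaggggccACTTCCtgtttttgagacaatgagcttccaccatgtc
Kcna3: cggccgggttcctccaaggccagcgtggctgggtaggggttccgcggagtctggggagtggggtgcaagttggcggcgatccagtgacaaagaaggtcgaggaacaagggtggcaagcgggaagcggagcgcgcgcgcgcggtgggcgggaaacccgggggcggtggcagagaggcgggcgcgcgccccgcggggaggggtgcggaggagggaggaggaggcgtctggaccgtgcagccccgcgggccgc
Kcnj5: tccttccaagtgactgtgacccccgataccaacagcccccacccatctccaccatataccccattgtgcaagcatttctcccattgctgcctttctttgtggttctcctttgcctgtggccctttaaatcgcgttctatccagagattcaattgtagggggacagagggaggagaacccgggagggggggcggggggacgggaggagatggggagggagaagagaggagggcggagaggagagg

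GGAAGT, a core bound by the ETS factors of ECs, and AGATAA, a core bound by the GATA factors of blood cells, were searched on both strands of each window, from 250 bases before the start to 50 after. Among all 32851 promoters, 23.8% held GGAAGT and 11.2% held AGATAA, and among the 71 members with a promoter entry 11 (15.5%) and 2 (2.82%) did. Of the 5 named members higher in Sca-1+ libraries that had an entry, only Kcne3 held GGAAGT and none held AGATAA. Kcnq1 and Kcnk3, also higher, had no entry. The 6 named lower members with an entry held neither motif. A match describes these letters only. In base composition the Kcna3 window stood at 75.0% GC with 37 CpG pairs, against a median of 52.7% and 7 over all promoters, Kcnj5 at 58.3%, Kcnj8 at 53.3% and Kcne3 at 48.3%.

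The voltage-gated group was the largest, with 53 members, of which 17 were tested. Higher in Sca-1+ libraries were 8 (4 of 40 pore subunits and 4 of 13 accessory subunits), and lower were 5 (4 pore subunits and 1 accessory subunit).

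Kcna3 (ENSMUSG00000047959, GRCm38 chromosome 3 from 107036169 to 107038070) was counted at 0.0682, 0.170, 0.276 and 0.619 CPM in Sca-1+ 7, 13, 15 and 19. It was counted at 1630, 2120, 392, 270 and 320 CPM in Sca-1- 8, 10, 14, 16 and 22. Every Sca-1- library lay far above every Sca-1+ library, and among the Sca-1- libraries 10 and 8 were the highest. The log2 fold change was -11.70 (SE 1.17, adjusted p = 5.5e-05 from edgeR's test), or -12.39 without Sca-1+ 19. The order of the 5 Sca-1- libraries in Kcna3 was also their order in the summed megakaryocyte genes (86200, 107000, 52700, 25400 and 35800 CPM in 8, 10, 14, 16 and 22), and its part in the level was not tested. Kcna2 and Kcna10, which lie 63075 and 144985 bases from Kcna3 on the same chromosome, stayed under the filter, at no more than 2.34 and 0.120 CPM in any library.

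Kcnq1, the pore subunit that pairs with the KCNE proteins, had the opposite pattern. It was counted at 58.4, 33.3, 50.4 and 28.3 CPM in Sca-1+ 7, 13, 15 and 19 and at 0.661, 0, 0, 0 and 0.0407 CPM in Sca-1- 8, 10, 14, 16 and 22. The fractions did not overlap, and 3 of 5 Sca-1- libraries had no read (log2 fold change 8.40, SE 1.03, adjusted p = 1.6e-04, edgeR). Sca-1- 8 held 11 of the 12 reads of its fraction, and without it the log2 fold change was 11.35. That value rests on 1 Sca-1- read, so its size is uncertain. Exons of Kcnq1 overlap the antisense RNA Kcnq1ot1 by 121 bases, and the use of strand in counting is not given in the sources used here. Kcnq1ot1 itself averaged 16.9 CPM (SD 2.42) in Sca-1+ and 10 CPM (SD 5.58) in Sca-1- libraries and did not pass (log2 fold change 0.75, adjusted p = 0.22, edgeR).

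Of the KCNE partners of Kcnq1, Kcne3 rose with it. Kcne3 (ENSMUSG00000035165) stood at 78.7, 67.0, 68.1 and 23.2 CPM in Sca-1+ 7, 13, 15 and 19 and at 0.300, 0.489, 0, 5.05 and 0.326 CPM in Sca-1- 8, 10, 14, 16 and 22. The groups did not overlap, library Sca-1+ 19 was the lowest of its fraction and Sca-1- 16 the highest of its own (log2 fold change 5.52, SE 1.13, adjusted p = 0.0028, edgeR). Without Sca-1- 16 its log2 fold change was 7.78. Kcne4, an inhibitory KCNE subunit, was at 11.2, 6.64, 35.1 and 49.5 CPM in the Sca-1+ libraries and at 0.901, 0.698, 0.297, 3.52 and 0 CPM in the Sca-1- libraries, in the same order. Again no Sca-1- library reached the lowest Sca-1+ library, though the Sca-1+ libraries themselves spread widely (log2 fold change 4.53, SE 1.09, adjusted p = 0.0067, edgeR; 5.80 without Sca-1- 16). Kcne1 and Kcne2 stayed under the filter, and Kcne1l had no count.

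Kcna5, a delayed rectifier of vascular muscle and heart, was counted at 7.91, 16.8, 16.7 and 57.3 CPM in Sca-1+ 7, 13, 15 and 19. In Sca-1- 8, 10, 14, 16 and 22 it was at 0.0601, 0, 0, 0.0996 and 0.366 CPM. All Sca-1+ libraries lay above, with library 19 at the top (log2 fold change 7.69, SE 0.98, adjusted p = 2.0e-04, edgeR), and the log2 fold change was 6.88 without it and 8.93 without Sca-1- 22. Its neighbor Kcna1, 104984 bases away, had no count in any library. Kcnab1, a beta subunit of such channels, was at 6.95, 3.37, 12.4 and 24.6 CPM in the Sca-1+ libraries and at 0.120, 0.489, 0, 0.0332 and 0.733 CPM in the Sca-1- libraries, without overlap (log2 fold change 5.43, SE 1.06, adjusted p = 0.0021, edgeR). Without Sca-1+ 19 this was 4.79 and without Sca-1- 22 it was 6.35. A noncoding gene on the opposite strand shares 201 exon bases with Kcnab1.

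The second beta subunit, Kcnab2, went the other way. It was at 0.477, 0.375, 0.656 and 0.542 CPM in the Sca-1+ libraries and at 19.9, 19.1, 21.7, 43.9 and 30.0 CPM in the Sca-1- libraries, without overlap and with the smallest SE of the called members (log2 fold change -5.70, SE 0.40, adjusted p = 1.5e-05, edgeR). Kcnab3, a further beta subunit, stayed under the filter, at 0.636 and 0.257 CPM on average in the Sca-1+ and Sca-1- libraries.

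The 4 Sca-1+ libraries did not rank alike for the higher members. Kcna5, Kcne4 and Kcnab1 were highest in Sca-1+ 19, the library with the highest summed smooth muscle and pericyte level (602, 218, 892 and 1510 CPM in 7, 13, 15 and 19), and Kcne4 and Kcnab1 followed the order of that sum through all 4 libraries. Kcnj8, Kcne3 and Kcnq1 were lowest in Sca-1+ 19. The part of smooth muscle cells or pericytes in these levels was not tested. With library 19 left out, Kcna5, Kcne4 and Kcnab1 stayed past the threshold.

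**Figure D2:**
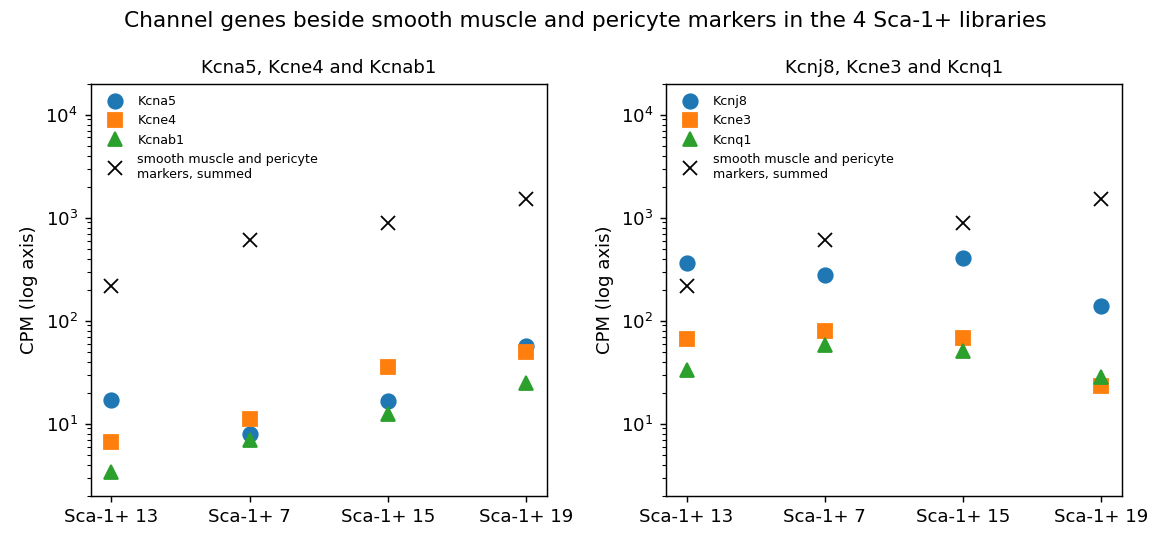
CPM (log axis) of 3 members highest in Sca-1+ 19 (left) and 3 members lowest there (right) in the 4 Sca-1+ libraries, ordered by the summed CPM of 11 smooth muscle and pericyte genes (crosses). Kcne4 runs from 6.64 to 49.5 CPM and Kcnab1 from 3.37 to 24.6 CPM in the order of the crosses (218 to 1510 CPM), while Kcnj8 is at 140 CPM in Sca-1+ 19 and at 276 to 402 CPM in the others.

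The electrically silent voltage-gated subunits, which form channels only together with other pore subunits, split between the fractions. Kcng2 was at 17.7, 11.7, 16.1 and 5.58 CPM in the Sca-1+ libraries and at 15.6, 51.8, 19, 25.1 and 16.2 CPM in the Sca-1- libraries. These ranges overlapped and the difference did not pass (log2 fold change -1, SE 0.45, adjusted p = 0.098, edgeR). A noncoding gene on the opposite strand shares 272 exon bases with it. Kcnf1 was at 0.170, 0, 0 and 0 CPM in the Sca-1+ libraries and at 9.07, 8.66, 3.31, 0 and 4.28 CPM in the Sca-1- libraries. It was lower in Sca-1+ libraries by the test (log2 fold change -6.70, SE 1.71, adjusted p = 0.0092, edgeR), although Sca-1- 16 had no count and the groups so overlapped. Without Sca-1+ 7, the only Sca-1+ library with a read, the log2 fold change was -9.93, a size that is then not measured. Kcnf1 was tested in 12 of the 18 alternatives and fell under the filter in the others, such as without Sca-1- 8.

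Kcng1 had no count in any Sca-1+ library and was at 5.77, 2.23, 0, 2.16 and 1.75 CPM in the Sca-1- libraries. That puts Sca-1+ libraries lower by at least 22.5-fold against a floor of 3 counts a library (adjusted p = 0.0086, edgeR), with Sca-1- 14 also at 0. Kcnc1, a fast delayed rectifier, likewise had no count in Sca-1+ libraries and was at 1.92, 0, 1.82, 1.59 and 1.75 CPM in the Sca-1- libraries. The level in Sca-1+ libraries was lower by at least 13.4-fold (adjusted p = 0.0058, edgeR), with Sca-1- 10 at 0. Kcng1 was tested in 12 of the 18 alternatives and Kcnc1 in 14. Both fell under the filter in the others, such as without Sca-1- 8. Kcns3, a silent subunit, had 136 counts over the Sca-1+ libraries and 1 over the Sca-1- libraries, a ratio of 131 after scaling (95% counting interval 23.1 to 5210). It was higher by the test (log2 fold change 6.41, adjusted p = 2.1e-04, edgeR). The log2 fold change of 7.89 without Sca-1- 22 stands against 0 counts in the other Sca-1- libraries, so its size is not measured. Kcnip3, a calcium-binding subunit, was at 4.09, 0.306, 1.93 and 2.90 CPM in the Sca-1+ libraries and 0.661, 0.489, 0, 0.332 and 0.163 CPM in the Sca-1- libraries. Sca-1+ 13 fell inside the Sca-1- range, and the call (log2 fold change 2.82, SE 0.97, adjusted p = 0.036, edgeR) was lost without Sca-1+ 7, 15 or 19 or without Sca-1- 10, 16 or 22, at adjusted p values up to 0.11.

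Of the 12 tested voltage-gated pore subunits, 4 did not pass, Kcng2, Kcnc2 and Kcna6 among them. Kcnc2 and Kcna6 were named after their values were seen. Kcnc2 had all 4 Sca-1+ libraries (2.08 to 5.49 CPM) above all 5 Sca-1- libraries (0 to 1.51 CPM) but missed the threshold (log2 fold change 2.81, SE 1.26, adjusted p = 0.096, edgeR).

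**Figure D3:**
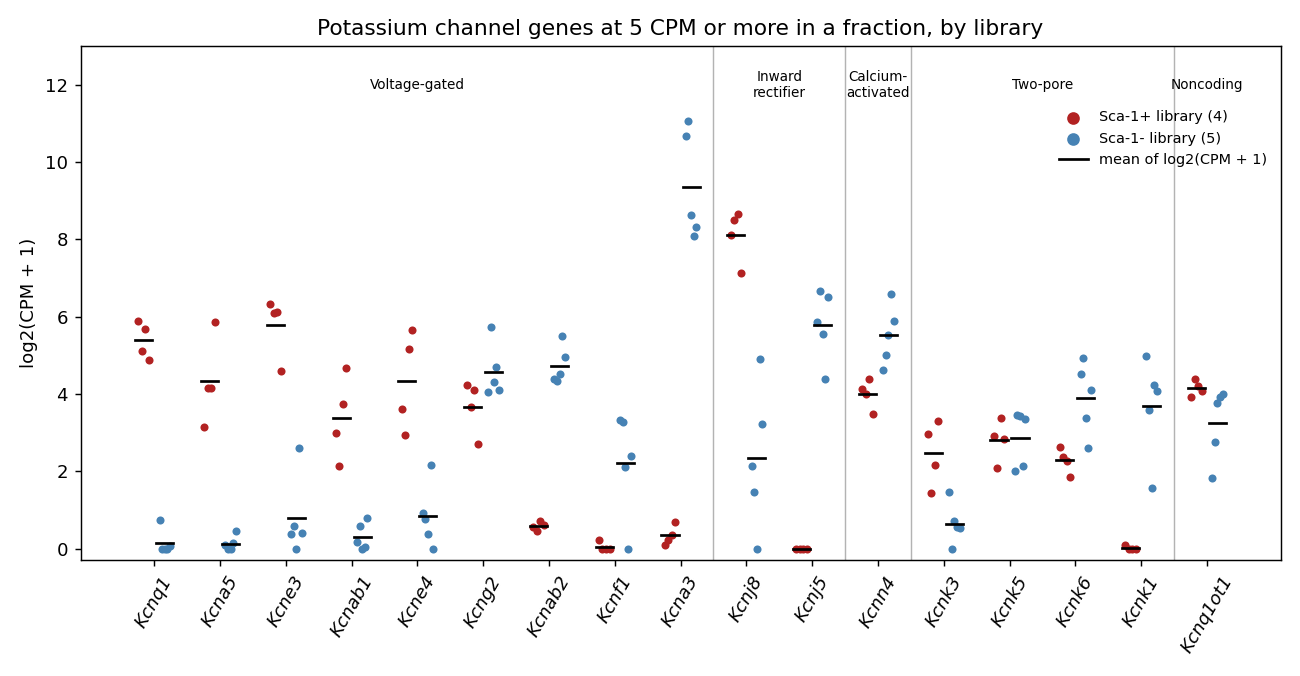
log2(CPM + 1) of the 17 potassium channel genes with a mean of 5 CPM or more in either fraction, by subfamily. Each point is a library (red, 4 Sca-1+; blue, 5 Sca-1-) and each black line is the mean of the points. Kcnj8 (140 to 402 CPM in Sca-1+) and Kcna3 (270 to 2120 CPM in Sca-1-) are the highest, and Kcnj5 is at 0 in all 4 Sca-1+ libraries.

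Of the 15 inward rectifiers, 5 were tested, 1 was higher in Sca-1+ libraries and 1 was lower. Kcnj8 (ENSMUSG00000030247, GRCm38 chromosome 6 from 142564837 to 142571614) was counted at 276, 361, 402 and 140 CPM in Sca-1+ 7, 13, 15 and 19. In Sca-1- 8, 10, 14, 16 and 22 it was at 3.42, 1.75, 0, 29.2 and 8.35 CPM. The fractions did not overlap, with Sca-1- 16 the highest of its group (log2 fold change 5.10, SE 1.20, adjusted p = 0.0062, edgeR). Without that library the log2 fold change was 6.43. Sca-1- 16 was also the library with the lowest summed endothelial level, 797 CPM. That order largely followed Esam, the 1 endothelial gene that did not pass. Esam was at 1270, 2380, 813, 303 and 391 CPM in Sca-1- 8, 10, 14, 16 and 22. The sum therefore does not rank these libraries by the other endothelial genes. The summed smooth muscle and pericyte level of Sca-1- 16 was 51.6 CPM, within the 18.8 to 59.7 CPM of the Sca-1- libraries. Of that list, Rgs5 was at 18.5 CPM in Sca-1- 16 and at most 0.0407 CPM in the other Sca-1- libraries. Acta2 was instead highest in Sca-1- 14 (16 CPM, against 11.2 CPM in Sca-1- 16). Esam, Rgs5 and Acta2 were named after their values were seen, and the part of pericytes in the Kcnj8 level was not tested.

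Abcc9, which encodes the sulfonylurea receptor that joins Kcnj8 in the vascular ATP-sensitive channel, lies 16247 bases from Kcnj8. It was at 111, 112, 171 and 89.2 CPM in Sca-1+ 7, 13, 15 and 19 and at 1.38, 0.0698, 0, 18.3 and 3.05 CPM in Sca-1- 8, 10, 14, 16 and 22. Both genes were thus highest in Sca-1+ 15 and lowest in Sca-1+ 19, and in the Sca-1- fraction both were highest in 16 and at 0 in 14 (Abcc9 log2 fold change 4.70, SE 1.29, adjusted p = 0.013, edgeR; 6.69 without Sca-1- 16). Per kilobase of exon Abcc9 was at 14.4 ± 4.19 CPM per kb (SD, n = 4) in Sca-1+ libraries, under Kcnj8. The other pair of this channel type, Kcnj11 and Abcc8, was at 0 in all libraries for Kcnj11 and at 0.307, 0.988, 1.31 and 0 CPM in the Sca-1+ libraries for Abcc8, which had no count in the Sca-1- libraries and was not tested.

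Kcnj5 (ENSMUSG00000032034, GRCm38 chromosome 9 from 32314707 to 32344350), a pore subunit of the G protein-gated channel of the heart, had no count in any Sca-1+ library. It was at 57.5, 101, 45.5, 19.8 and 90.2 CPM in Sca-1- 8, 10, 14, 16 and 22, or 597 to 2215 counts. Its level in Sca-1+ libraries was thus lower by at least 593-fold against a floor of 3 counts a library (adjusted p = 7.3e-05, edgeR). Kcnj3, with which it pairs in the heart, had no count in any of the 9 libraries. Kcnj1, the next channel gene 28142 bases away, stayed under the filter. Kcnj2, a strong inward rectifier of ECs, was at 1.84, 1.57, 3.04 and 4.88 CPM in the Sca-1+ libraries and at 0.420, 0, 1.74, 2.96 and 0.204 CPM in the Sca-1- libraries, and did not pass (log2 fold change 1.39, SE 1, adjusted p = 0.29, edgeR). Kcnj15 had every Sca-1+ library (3 to 5.70 CPM) above every Sca-1- library (0 to 2.04 CPM) but missed the threshold (adjusted p = 0.081, edgeR). Both were named after their values were seen.

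Of the 12 calcium-activated members, 4 were tested, none was higher in Sca-1+ libraries and 2 were lower. Kcnn4, the intermediate-conductance channel of ECs and red cells, was present in both fractions, at 16.6, 15.1, 19.8 and 10.2 CPM in Sca-1+ 7, 13, 15 and 19 and at 23.8, 31.1, 44.9, 94.5 and 58.7 CPM in Sca-1- 8, 10, 14, 16 and 22. The groups did not overlap, but the gap between Sca-1+ 15 and Sca-1- 8 was small (log2 fold change -1.71, SE 0.41, adjusted p = 0.0065, edgeR). Scaled by library size only, the difference did not pass (adjusted p = 0.056). The Sca-1- library highest in Kcnn4, 16, had the lowest megakaryocyte sum of that fraction (25400 CPM). The lowest in Kcnn4, Sca-1- 8, had the second highest sum (86200 CPM). The part of megakaryocytes or other cells in the Kcnn4 level was not tested. Kcnn3, the small-conductance channel of ECs, stayed under the filter, at 0.750 and 0.313 CPM on average.

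Of the large-conductance channel, the pore Kcnma1 did not pass (0.444 ± 0.527 against 2.35 ± 2.50 CPM, log2 fold change -2.39, SE 1.15, adjusted p = 0.12, edgeR). Its smooth muscle subunit Kcnmb1 was at 1.60 ± 1.21 and 2.15 ± 0.668 CPM (adjusted p = 0.74, edgeR). The neuronal subunit Kcnmb4 was lower in Sca-1+ libraries, at 0.307, 0.204, 0.104 and 0.0774 CPM against 2.28, 0.0698, 1.19, 0.930 and 1.02 CPM. Sca-1- 10 lay below the Sca-1+ range (log2 fold change -2.63, SE 0.84, adjusted p = 0.028, edgeR). The call was lost without Sca-1+ 13, 15 or 19 (adjusted p 0.065, 0.088 and 0.079). It was also lost with scaling by library size only (adjusted p = 0.063, edgeR) and with no filter on low counts (adjusted p = 0.054, edgeR). Antisense genes share 1048 exon bases with Kcnmb4, so its counts are uncertain.

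Of the 14 two-pore channels, 6 were tested, 2 were higher and 2 were lower in Sca-1+ libraries. Kcnk1 was at 0.0682, 0, 0 and 0 CPM in the Sca-1+ libraries and at 30.9, 11, 1.99, 17.7 and 15.8 CPM in the Sca-1- libraries. All Sca-1- libraries lay above, Sca-1- 14 being the lowest (log2 fold change -9.42, SE 1.15, adjusted p = 1.6e-04, edgeR). Without Sca-1+ 7 the log2 fold change was -11.55, against 0 counts in the other Sca-1+ libraries, so that size is not measured. With 2 counts against 1640, the ratio of Sca-1- to Sca-1+ was 855 with a 95% counting interval of 235 to 7040. Its close relative Kcnk6, reported in lysosomes and vessels, was at 5.21, 4.19, 3.83 and 2.59 CPM in the Sca-1+ libraries and at 21.9, 29.3, 9.33, 5.05 and 16.1 CPM in the Sca-1- libraries. Sca-1- 16 lay just below Sca-1+ 7, so the groups overlapped by 1 library (log2 fold change -2.04, SE 0.51, adjusted p = 0.0081, edgeR). In the 6 libraries with consecutive end numbers the difference did not pass, with those numbers as a block (-1.21, adjusted p = 0.15) or without (-1.45, adjusted p = 0.099).

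The acid-sensitive leak channel Kcnk3 was the more abundant of the higher pair, at 6.82, 1.70, 3.49 and 8.87 CPM in the Sca-1+ libraries and at 1.74, 0, 0.636, 0.465 and 0.448 CPM in the Sca-1- libraries. Sca-1+ 13 and Sca-1- 8 overlapped, and the call (log2 fold change 2.98, SE 0.89, adjusted p = 0.020, edgeR) was lost without Sca-1+ 7 (adjusted p = 0.052) or 19 (adjusted p = 0.061). Without Sca-1- 8 the log2 fold change was 3.64. A gene on the opposite strand shares 229 exon bases with Kcnk3. Kcnk7, named after its values were seen, was higher at 0.902 ± 0.266 against 0.0326 ± 0.0728 CPM (log2 fold change 4.48, SE 1.03, adjusted p = 0.0055, edgeR). Its log2 fold change was 7.49 without Sca-1- 22, the only Sca-1- library with a read, so that size is not measured. Kcnk5, an alkali-activated leak channel, was at 6.33 ± 2.49 and 7.07 ± 3.55 CPM, and these overlapping values gave no detected difference (log2 fold change -0.16, SE 0.48, adjusted p = 0.81, edgeR).

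Genes that channels work with were taken as a list of 40. Of these 30 were tested, 16 were higher in Sca-1+ libraries, 10 were lower and 4 did not pass. Over all 15937 genes tested, 23.3% were higher and 21.4% lower. The list was chosen with earlier results of these data known, so no count of it or of its parts is read as particular to these genes. Among 13 genes of calcium entry and release, 6 were higher and 6 lower. Trpv4, a calcium-permeable channel of ECs, had the largest log2 fold change of the 6 that rose, at 47.9, 45.2, 48.6 and 91.6 CPM against 13.9, 2.16, 0.933, 5.74 and 6.03 CPM (log2 fold change 3.34, SE 0.65, adjusted p = 0.0022, edgeR). Trpc6, a receptor-operated cation channel, fell, at 1.3, 0, 2.66 and 6.39 CPM against 188, 296, 105, 62.5 and 144 CPM (log2 fold change -5.95, SE 1.11, adjusted p = 0.0017, edgeR; -6.91 without Sca-1+ 19). Its relative Trpc1 fell alike, at 3.66 ± 3.74 against 212 ± 206 CPM (log2 fold change -5.86, SE 1.05, adjusted p = 0.0013, edgeR), or -6.83 without Sca-1+ 19 and -5.22 without Sca-1- 10. Neither Trpc gene overlapped between the fractions.

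Of 5 cation chloride cotransporters, which move potassium with chloride, 4 were higher and 1 did not pass, and Slc12a7 rose most among those above 20 CPM, at 109, 81.5, 109 and 145 CPM against 2.64, 4.47, 1.87, 10.5 and 10.1 CPM (log2 fold change 4.22, SE 0.53, adjusted p = 1.9e-04, edgeR). Of 7 sodium-potassium pump genes, 3 were higher, 2 lower, 1 did not pass and 1 was not tested. Atp1b1 was lower at 0.682, 2.04, 3.76 and 5.30 CPM against 2.46, 5.59, 15.1, 70.5 and 31.1 CPM, with overlap (log2 fold change -3.08, SE 0.98, adjusted p = 0.026, edgeR), and this call was lost without Sca-1+ 7, 13 or 15 or without Sca-1- 16. It shares 575 exon bases with a gene on the opposite strand. The single called genes among the 4 gamma subunits of the large-conductance channel and the 4 HCN channels, named after their values were seen, were Lrrc55 (7.59 ± 7.15 CPM in Sca-1+ and no count in Sca-1- libraries) and Hcn3 (0.171 ± 0.121 against 2.66 ± 1.90 CPM). Neither of the 2 partners of the fast transient channels was tested.

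The direction of some higher members depended on the scaling. The general endothelial genes were themselves higher in Sca-1+ libraries. Scaled so that the endothelial genes were level, the median of all genes moved by -4.36 on the log2 scale, and 3 members were higher and 18 lower in Sca-1+ libraries. The 3 were Kcnq1 (log2 fold change 4.03, adjusted p = 0.0077, edgeR), Kcna5 (3.80, adjusted p = 0.0037) and Kcns3 (2.86, adjusted p = 0.021). Kcnj8 (1.03), Kcne3 (1.41), Kcnab1 (1.07), Kcne4 (0.33) and Kcnk7 (0.61) kept their sign and did not pass. Kcnk3, Kcnip3, Kcnq1ot1, Slc12a7 and Trpv4 turned to the other sign, while all 10 lower members stayed lower. Scaled by library size only, 12 members were higher and 8 lower, the median of all genes moved by 0.36, and 63.1% of all called genes were higher in place of 52.1%.

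**Figure D4:**
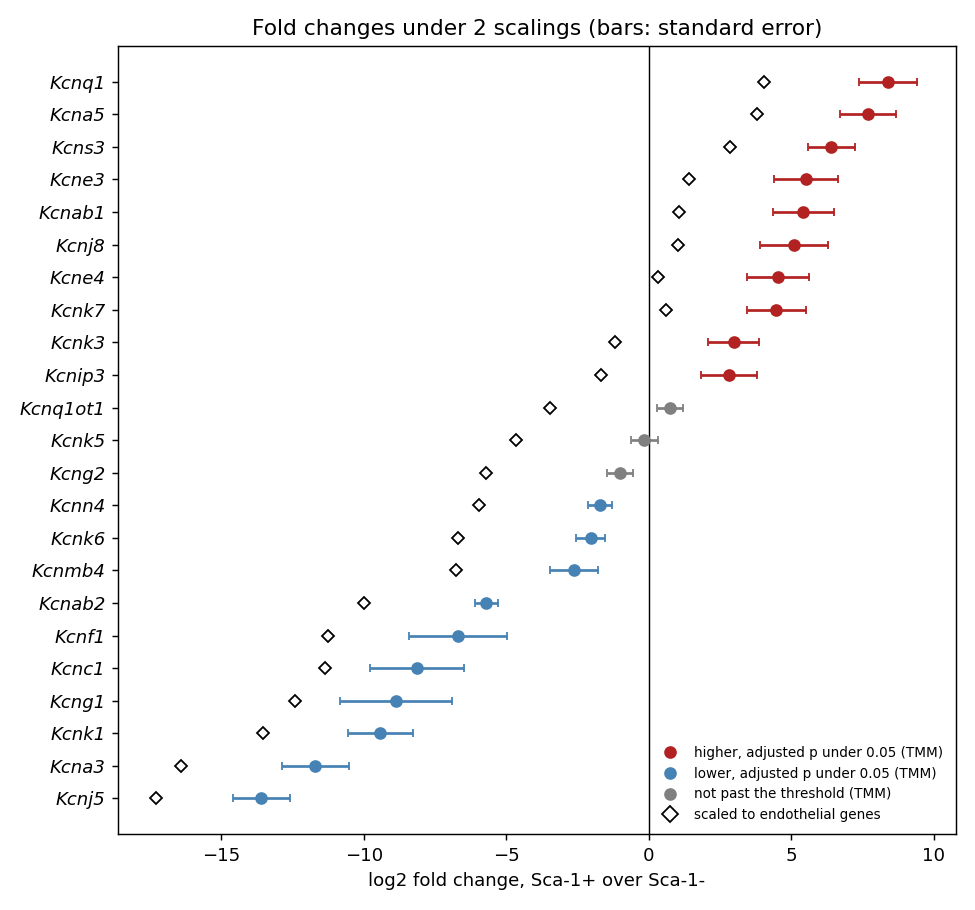
log2 fold change of Sca-1+ over Sca-1- (x axis) for 23 potassium channel genes, with TMM scaling (circles, bars are the standard error; red higher, blue lower, grey not past the threshold) and with the general endothelial genes held level (open diamonds). With the endothelial genes level every gene moves to the left, Kcnq1 from 8.40 to 4.03 and Kcnj8 from 5.10 to 1.03.

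The 64 members that were not tested comprised 36 voltage-gated genes, 10 inward rectifiers, 8 calcium-activated genes, 8 two-pore channels and 2 noncoding RNAs. None of them reached a mean of 1 CPM in either fraction. The highest mean was that of Kcna4, which had no count in the Sca-1+ libraries and averaged 0.850 CPM in the Sca-1- libraries. Of the 22 with no count in any library, 11 were voltage-gated, 6 two-pore, 4 inward rectifiers and 1 calcium-activated. Exons of 25 of the 97 members overlap another listed gene, and for those the counts cannot be assigned to a strand.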

How the data were processed

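Transcriptomes were measured by RNA-seq in sorted BM ECs. Per the labels, RNA was taken with a miRNeasy micro kit and libraries were made with the SMART-Seq v4 low input kit from 2 ng of total RNA, which has no molecular identifiers. PCR copies are therefore in the counts, and the intervals and floors cover counting error only. The authors deposited raw read counts for 46078 genes in 9 libraries, without normalization. The submitters' processing notes name STAR, featureCounts and mm10. Versions, annotation and the use of strand are not given in the sources used here. No table column went without a sample.

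Counts were scaled by TMM factors (1.12 to 1.22 in Sca-1+ and 0.581 to 1.16 in Sca-1- libraries). Low genes were removed by edgeR's filterByExpr (minimum count 10, minimum total 15), and the rest were fitted with edgeR 4.0.16 in R 4.3.3 by its two-sided quasi-likelihood test over all 9 libraries, with p-values adjusted by Benjamini-Hochberg across the whole table (threshold 0.05). The SE of a log2 fold change is its size over the square root of F. The fit was tested on simulated data with 67, 67 and 66 genes changed by 1, 2 and 3 on the log2 scale. It found 5.97%, 35.8% and 78.8% of them, and called 4 unchanged genes. Far fewer genes changed there than passed in the data, which makes the adjusted threshold harder to pass. A member that did not pass is therefore not read as equal in the fractions. Alternatives were RLE factors, library size only, scaling to the endothelial genes, no filter, DESeq2 1.42.0, a robust fit, each library left out and a replicate block. Coordinates and exon lengths are from GENCODE M21 (GRCm38), in which all 97 members were found.

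The members, the marker and partner lists and the motifs were chosen with earlier results of these data known. Values are given for members with a mean of at least 5 CPM in either fraction. Called members with 1 to 5 CPM in the higher fraction are named, with values for the largest log2 fold changes of each subfamily, and the rest are given by counts and ranges. Partners are up to 3 called genes in each direction with at least 20 CPM, plus Abcc8 and Abcc9. Genes outside these rules were named after their values were seen and are marked so. Library titles open with running numbers that form a separate series for each fraction, and any batch they mark cannot be told apart from the fraction. Counts of libraries of one fraction differed by a chi-square of at least 36.8 per degree of freedom, so none was a copy of another. The planned protein comparison was not run. A few genes that these rules name are not reported here. Plots were drawn with matplotlib 3.10.9.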

Additional observations from a re-analysis of the deposited data

Results flagged for a closer look

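In groups of 4 or 5 libraries, a library was singled out where its log2 CPM lay far from the others by Dixon's criterion, which chance meets in about 1 in 20 groups. Of 64 groups, 10 held such a library. Several rest on a handful of reads, with the other libraries at 0 counts, which is -3.63 on this scale. Kcnk1 was at -2.75 in Sca-1+ 7 and Kcnf1 at -1.99 in Sca-1+ 7, where the other 3 Sca-1+ libraries were at -3.63. Kcns3 was at -3.04 and Kcnk7 at -2.04 in Sca-1- 22, where the other 4 Sca-1- libraries were at -3.63.

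In 3 members a single Sca-1- library lacked the gene. Kcnf1 was at -3.63 in Sca-1- 16 and between 1.76 and 3.19 in the others, Kcng1 at -3.63 in Sca-1- 14 and between 0.87 and 2.55 in the others, and Kcnc1 at -3.63 in Sca-1- 10 and between 0.74 and 1 in the others. Kcnq1 was at -0.43 in Sca-1- 8 and between -3.63 and -3.04 in the other Sca-1- libraries. Kcne3 was at 4.54 in Sca-1+ 19 and between 6.07 and 6.30 in the other Sca-1+ libraries.

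The summed B and plasma cell genes were at 10.99 (log2 CPM) in Sca-1+ 19 and between 0.58 and 0.82 in the other Sca-1+ libraries. The part of these cells in the channel values was not tested.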

How the results depend on the processing

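With the endothelial genes held level, 3 members were higher, 18 lower and 14303 genes passed in all (225 higher and 14078 lower), against 11, 10 and 7137. Signs then turned for Kcnq1ot1 (-3.45), Kcnk3 (-1.19), Kcnip3 (-1.67), Slc12a7 (-0.01) and Trpv4 (-0.89). Kcnk5, which did not pass, was at 0.23 with library size only, between -0.45 and 0.06 with 1 library left out, 0.39 with a replicate block and 0.24 in the same 6 libraries without it. With 1 library left out, 9 to 12 members were higher and 6 to 11 lower, the 6 occurring without Sca-1- 8 and without Sca-1- 22, where 26 and 28 members were tested in place of 33. Lost calls of Kcnip3, Kcnmb4, Kcnk3 and Atp1b1 are given beside their values. Kcnf1 and Kcng1 were tested in 12 of the 18 alternatives, Kcnc1 and Kcnmb4 in 14 and Kcnip3 in 17. In the others they fell under the filter, so they had no call there.

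The labels share no replicate number between the fractions. The consecutive end numbers 7 and 8, 13 and 14, and 15 and 16 gave correlations of library deviations of 0.147, 0.148 and 0.042. Of these only 15 and 16 share the unexplained number in their titles, and the end numbers were not taken as pairs. With these 6 libraries and the numbers as a replicate block, 8 members were higher, 6 lower and 4340 genes passed in all, and without the block 8, 7 and 5360. With that block the calls of Kcnn4 (-1.46, adjusted p = 0.054, edgeR), Kcnk6 (-1.21, 0.15), Kcnk7 (7.39, 0.055), Kcnk3 (2.09, 0.085), Kcnip3 (3, 0.079) and Kcnmb4 (-2.83, 0.058) were lost. Kcnk7 had no count in the Sca-1- libraries of this set, so the size of its value is not measured. Without the block, in those 6 libraries, the calls of Kcnk6, Kcnk3, Kcnip3, Kcnj8 (4.98, 0.055), Abcc9 (4.31, 0.076) and Atp1b1 (-3.77, 0.054) were lost. Leaving out Sca-1+ 19 and Sca-1- 10 together, chosen after seeing the data, gave 10 higher and 10 lower.

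RLE factors and the robust fit each gave 11 higher and 10 lower, no filter 12 and 11, and DESeq2 13 and 14. Over the single genes and all alternatives, 453 of the values kept their side of the threshold and direction, 37 lost the call, 2 gained it and 9 turned. Fits in which a gene fell under the filter are outside this tally. All alternatives were run. Depth limits a library to levels above 0.0996 to 0.209 CPM.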
